A study of Bos taurus with 8 samples.

Results

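The genes described here encode the enzymes that dispose of superoxide, hydrogen peroxide and lipid peroxides, together with those that make, recycle or use glutathione and thioredoxin. They were chosen by symbol from a list of 36 names, and 38 of the 28709 rows of the deposited gene table carry these symbols, because GSTP1 and GSTM1 each stand on 2 rows. All 38 rows passed the filter on low counts and were tested. The poly(A) RNA came from BUTE cells, a wild-type line of immortalized uterine epithelium derived from a Holstein cow. Progesterone at 10 µM was given for 24 h to the cells behind 4 libraries, and DMSO, its vehicle, to those behind the other 4. Both groups received 50 ng/ml insulin-like growth factor 1 at the same time, after 24 h of serum and steroid starvation in which the growth factor was also present. All libraries come from 1 cell line of 1 cow, and the labels do not say whether libraries of a group were separate cultures, so p-values measure the spread between these libraries only.

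Superoxide dismutases turn superoxide into hydrogen peroxide. Catalase, the peroxiredoxins and the glutathione peroxidases then reduce peroxides, the last with electrons from glutathione and most peroxiredoxins with electrons from thioredoxin. Glutathione reductase and the thioredoxin reductases restore both carriers with NADPH, so these enzymes are the users of the NADPH that the pentose phosphate pathway, named in the title of the series, supplies. In the uterus the endometrial epithelium carries many of these enzymes, and oxidant defence there has been linked to the ovarian cycle.

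Library names are the column names (progesterone R1, R2, R3 and R6, DMSO R1, R3, R7 and R9), and no sample title carries these numbers. They held 23810861 to 32509786 estimated counts with progesterone and 26697855 to 30299567 with DMSO. DMSO R7 and R9 stood apart: their log2 CPM correlated with each other at 0.992 but with the other 6 libraries at 0.949 to 0.962, while those 6 correlated at 0.983 or more. Values without these 2 libraries are therefore given beside many of the results, a comparison of 4 with 2 libraries that was chosen with this structure known. Markers of the labelled cell type were mixed. The keratins KRT8 and KRT19 were abundant and the adherens junction gene CDH1 was at 13.1 to 22.8 CPM with progesterone and 10.5 to 17.3 CPM with DMSO. The keratin KRT18, however, lay at 0.955 to 1.81 CPM with progesterone and 1.21 to 6.93 CPM with DMSO. EPCAM lay at 0.277 to 0.599 CPM and 0.552 to 2.52 CPM, and CLDN4 below 0.2 CPM in every library. All 9 mesenchymal markers were present, among them VIM and the collagens COL1A1 and COL1A2. Of the smooth muscle markers, TAGLN was at 885 to 2203 CPM and ACTA2 at 542 to 771 CPM, while MYH11 lay below 0.2 CPM. The summed level of the 8 epithelial markers, mostly KRT8, was 1757 to 2679 CPM with progesterone and 2842 to 3094 CPM with DMSO. That of the mesenchymal markers was 12083 to 13277 CPM and 13286 to 20569 CPM. Neither sum overlapped between the groups, but the mesenchymal gap was narrow. DMSO R1 and R3 were at 13286 and 13572 CPM, and only R7 and R9 stood well above, at 20569 and 19039 CPM. VIM overlapped, at 6562 to 7467 CPM with progesterone and 5814 to 6816 CPM with DMSO. The leukocyte marker PTPRC had no count in any library, but CD14 was at 3.13 to 11.9 CPM and CD68 at 1.01 to 2.67 CPM. In such bulk RNA a change in the make-up of the culture and a change of RNA per cell cannot be told apart, and the part of these marker differences in the results below was not tested.

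With progesterone, 3 of the 38 rows rose and none fell, taking as passed a Benjamini-Hochberg adjusted p below 0.05 over 13557 genes in edgeR's quasi-likelihood test. The genes that rose were GPX1 (2.03-fold), MGST1 (1.80-fold) and PRDX6 (1.31-fold). The 3 rows are 7.89% of the members, where 2.65% of all genes tested passed, 1.69% as higher and 0.959% as lower. An unadjusted p under 0.05 was found for 14 members, 36.8% of them, against 26.8% of all genes. DESeq2 called 9 members, 23.7%, against 13.5% of all genes, and limma voom called 3, against 2.04% of all genes. Without DMSO R7 and R9, GPX1 and MGST1 passed, 5.26% of the members against 0.995% of all genes called higher, and none was called lower, against 0.182% of all genes (1.18% in either direction). The members' median log2 fold change was 0.23 over 8 libraries and 0.11 over 6, against -0.01 and 0.01 over all genes tested. A positive log2 fold change was found for 29 members (76.3%, against 49% of all genes), and for 28 without R7 and R9 (73.7%, against 52%). The 4 progesterone libraries lay above the 4 DMSO libraries at 6 members (15.8%, against 7.95% of all genes) and below them at 1 (2.63%, against 8.22%). Against DMSO R1 and R3 alone, they lay above at 8 members, where 14% of all genes did, and below at 2, where 12.7% did. As descriptions of a list of related genes that share libraries, these shares carry no test.

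**Figure D1:**
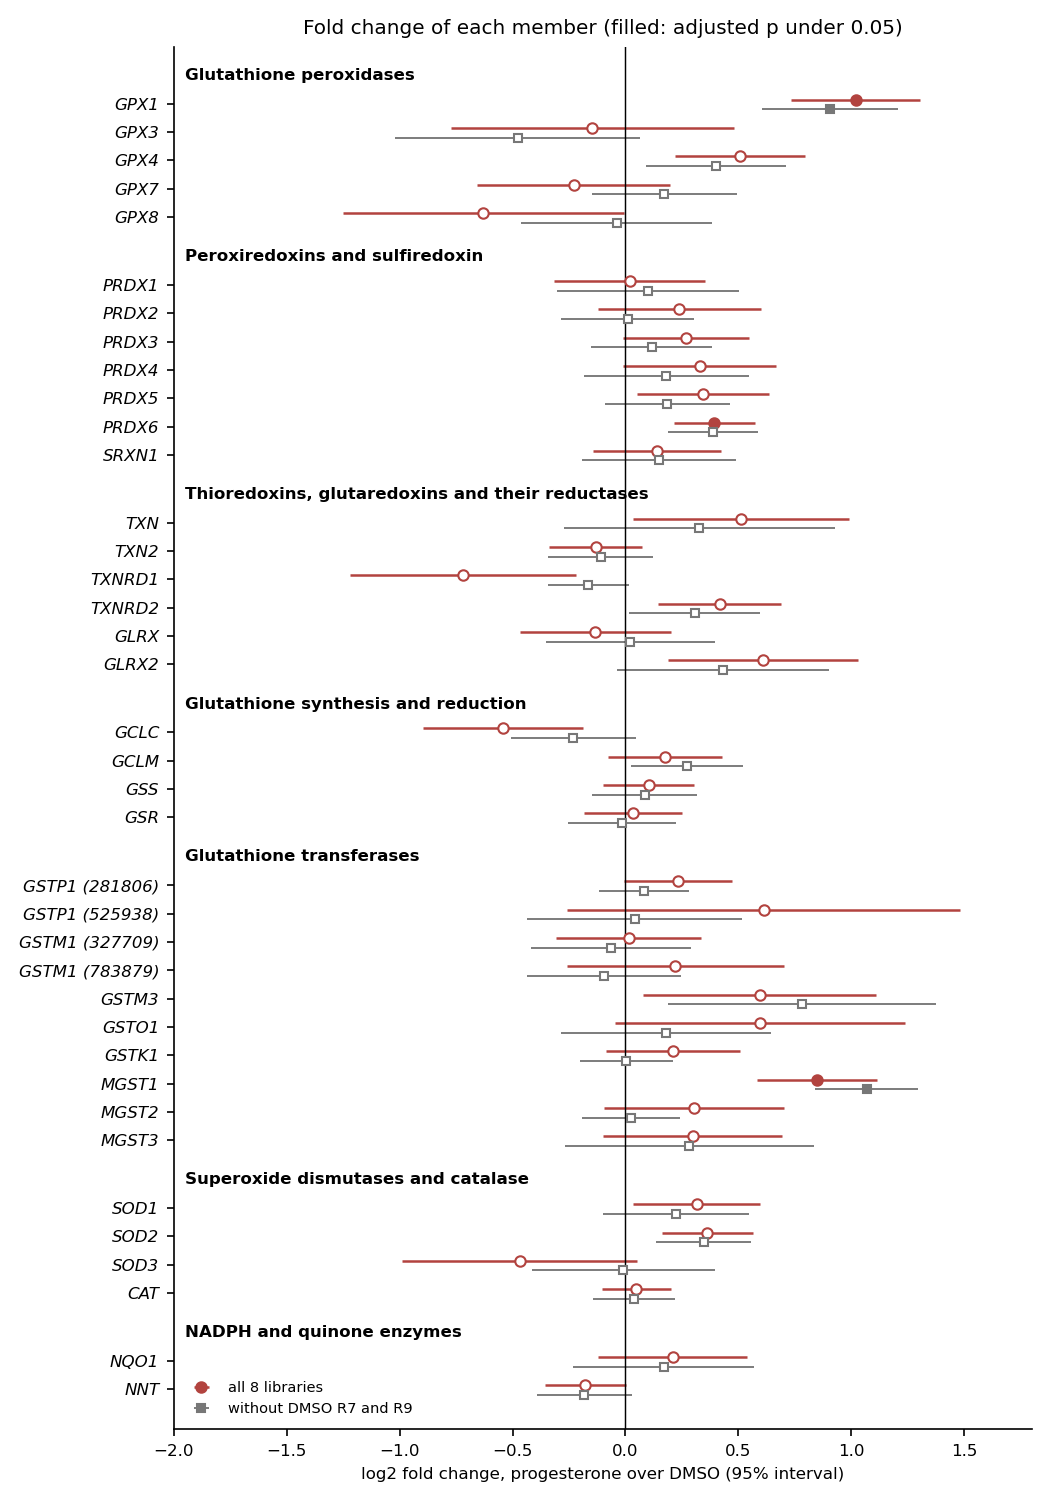
Log2 fold change of each member, progesterone over DMSO, on the horizontal axis, with 95% intervals, by enzyme family down the page. Red circles use all 8 libraries and grey squares leave out DMSO R7 and R9; filled symbols mark an adjusted p under 0.05. GPX1 and MGST1 are filled in both, PRDX6 only with all 8 libraries, and TXNRD1, GPX8 and SOD3 move towards 0 in the second fit.

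Of the 5 glutathione peroxidases, GPX1 passed as higher, where 1.69% of all genes did, and the other 4 did not pass. GPX1 (Entrez Gene 281209, chromosome 22), the main cytosolic peroxidase for hydrogen peroxide and a selenoprotein, was at 89.9, 83.2, 118 and 88.2 CPM with progesterone and at 49.4, 52.7, 44.8 and 40.1 CPM with DMSO. Every progesterone library lay well above every DMSO library. The means were 94.8 ± 15.6 and 46.8 ± 5.53 CPM (SD, n = 4 each), a rise of 2.03-fold (1.02 ± 0.13 SE as log2, edgeR adjusted p = 0.00784). Without R7 and R9, the 2 lowest DMSO libraries, the log2 fold change was 0.90 ± 0.14 (adjusted p = 0.0130). Leaving out each library in turn kept GPX1 past the threshold in 8 of 8 fits, with adjusted p between 0.00822 and 0.0375.

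GPX4 (286809, chromosome 7), the selenoprotein that reduces lipid hydroperoxides within membranes and restrains ferroptosis, was at 449.6, 514, 619.6 and 571 CPM with progesterone and at 365, 459, 352 and 339.9 CPM with DMSO. The groups overlapped because progesterone R1 lay below DMSO R3. The log2 fold change was 0.51 ± 0.13 and did not pass in edgeR (adjusted p = 0.0640), although DESeq2 called it (0.0044), and it was 0.40 ± 0.14 without R7 and R9 (0.2002). GPX3, the secreted plasma peroxidase, was low, at 1.82 to 3.06 CPM with progesterone and 1.82 to 3.72 CPM with DMSO. The log2 fold change of GPX3 was -0.15 over 8 libraries and -0.48 with R7 and R9 omitted, and neither passed.

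GPX7 and GPX8, which carry cysteine in place of selenocysteine and act in the endoplasmic reticulum, did not pass. GPX8 (511575, chromosome 20) was at 22.8, 32.3, 24.4 and 37.6 CPM with progesterone and at 28.9, 31.7, 59.2 and 61.2 CPM with DMSO. Only DMSO R7 and R9 stood out, and DMSO R1 and R3 lay within the progesterone range. Its log2 fold change was -0.63 ± 0.28 with all libraries (adjusted p = 0.183) and -0.04 ± 0.19 without these 2. GPX7 was at 15.1 ± 1.32 CPM with progesterone and 17.7 ± 5.02 CPM with DMSO, again with R7 and R9 above the other 6 libraries, and its log2 fold change was -0.23 with all libraries and 0.17 without them.

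**Figure D2:**
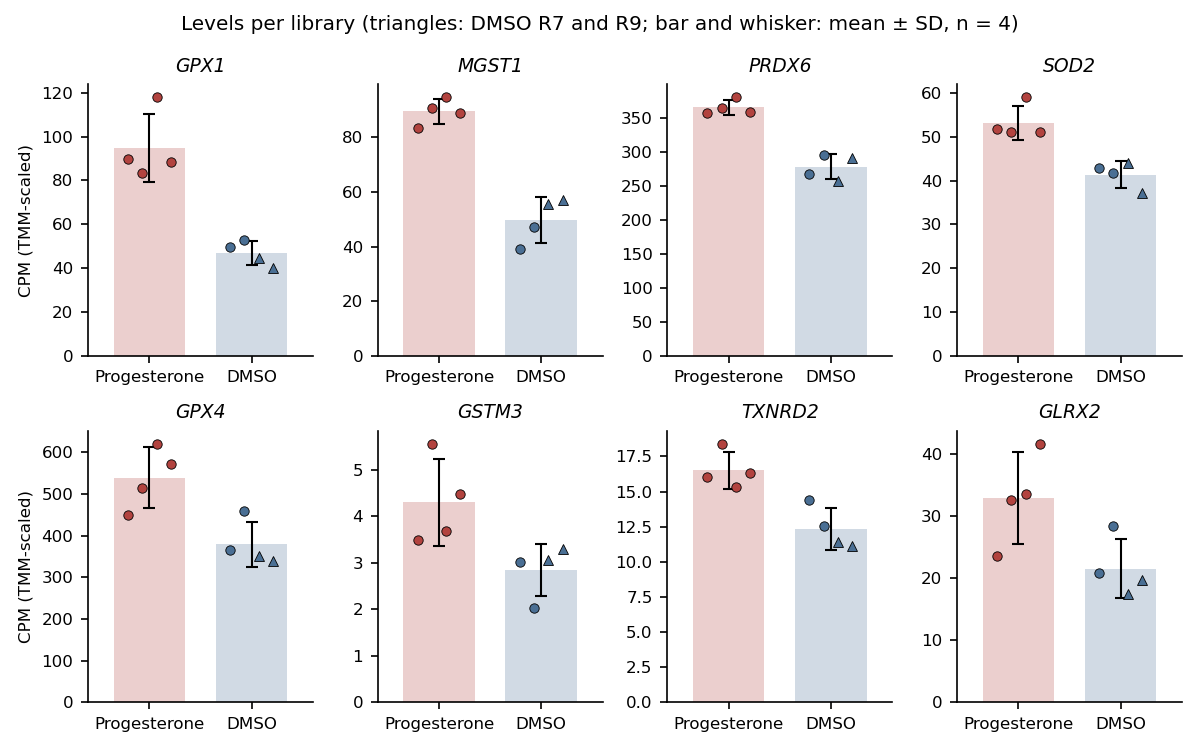
CPM of 8 members in each library, with progesterone in red at the left and DMSO in blue at the right of each panel. Points are libraries, triangles are DMSO R7 and R9, and bars with whiskers give the mean ± SD (n = 4 each); GPX1, MGST1, PRDX6, SOD2, GSTM3 and TXNRD2 do not overlap between the groups, while GPX4 and GLRX2 do.

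All 7 genes of the peroxiredoxin family, sulfiredoxin included, had a log2 fold change above 0, between 0.02 and 0.39, against 49% of all genes. Of the 7, 1 passed as higher, where 1.69% of all genes did. Without R7 and R9 all 7 stayed above 0, against 52% of all genes, and none passed. The family's median was 0.27 over 8 libraries and 0.15 without these 2. PRDX6 (282438, chromosome 16), the 1-cysteine peroxiredoxin, reduces phospholipid hydroperoxides with electrons from glutathione rather than thioredoxin. It was at 358, 365, 381 and 359 CPM with progesterone and at 268, 296, 258 and 292 CPM with DMSO. The groups did not overlap, and the progesterone libraries were close together. PRDX6 averaged 366 ± 10.4 CPM with progesterone and 279 ± 18.6 CPM with DMSO (SD, n = 4 each), a rise of 1.31-fold (0.39 ± 0.08 SE as log2, edgeR adjusted p = 0.0368). Without R7 and R9 its log2 fold change was 0.39 ± 0.09, the same size, but it did not pass (adjusted p = 0.0689). It also did not pass when DMSO R7, DMSO R9 or any single progesterone library was left out, with adjusted p up to 0.116.

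The thioredoxin-dependent peroxiredoxins overlapped between the groups. PRDX1, a cytosolic enzyme, was at 699.8 ± 129.7 CPM with progesterone and 690.2 ± 101 CPM with DMSO (log2 fold change 0.02, 95% interval -0.31 to 0.35). Those of other compartments had values above 0 that did not pass. The log2 fold change was 0.27 for mitochondrial PRDX3 (interval -0.01 to 0.55), 0.33 for PRDX4 of the endoplasmic reticulum (-0.01 to 0.67) and 0.34 for PRDX5, which is found in mitochondria, peroxisomes and cytosol (0.05 to 0.64, adjusted p = 0.138). PRDX2, another cytosolic enzyme, was at 344, 426, 480.3 and 465 CPM with progesterone and at 398, 462, 299 and 295 CPM with DMSO. Without R7 and R9, the 2 lowest libraries, these values were 0.12 for PRDX3, 0.18 for PRDX4, 0.19 for PRDX5 and 0.01 for PRDX2. SRXN1, sulfiredoxin, which repairs peroxiredoxins whose cysteine has been over-oxidized, was at 46.5 ± 6.21 CPM with progesterone and 42.2 ± 5.77 CPM with DMSO.

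None of the 6 thioredoxins, glutaredoxins and thioredoxin reductases passed in edgeR or limma voom. In edgeR 4 reached 0.05 before adjustment, against 26.8% of all genes. DESeq2 called 3 of the 6, against 13.5% of all genes, with TXNRD2 and GLRX2 higher and TXNRD1 lower. The 2 reductases, both NADPH-dependent selenoproteins, had opposite signs. TXNRD1 (282388, chromosome 5), the cytosolic thioredoxin reductase, was at 126, 126, 135 and 123 CPM with progesterone and at 142, 147, 272 and 279 CPM with DMSO. It was the single member whose progesterone libraries all lay below the DMSO libraries. DMSO R1 and R3 were much nearer to progesterone than to DMSO R7 and R9. The log2 fold change was -0.72 ± 0.22 with all libraries (adjusted p = 0.0917) and -0.17 ± 0.08 without R7 and R9 (adjusted p = 0.355). TXNRD1 passed when DMSO R1 or DMSO R3 was the library left out.

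TXNRD2 (282389, chromosome 17), the mitochondrial thioredoxin reductase, was at 16.0, 18.4, 15.3 and 16.3 CPM with progesterone and at 14.4, 12.6, 11.4 and 11.1 CPM with DMSO. Its groups did not overlap, and the log2 fold change was 0.42 ± 0.12 (edgeR adjusted p = 0.0817), or 0.31 ± 0.13 without R7 and R9 (0.285). GLRX2, the mitochondrial and nuclear glutaredoxin, was at 23.5, 32.6, 33.6 and 41.6 CPM with progesterone and at 20.8, 28.3, 17.4 and 19.6 CPM with DMSO. Its log2 fold change of 0.61 ± 0.19 did not pass (adjusted p = 0.0912), nor did that of 0.43 ± 0.21 without R7 and R9 (0.357). Progesterone R1 lay within the DMSO range.

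Thioredoxin itself, TXN (280950, chromosome 8), was at 194, 287, 282 and 413 CPM with progesterone and at 212, 262, 178 and 174 CPM with DMSO. Progesterone R6 was the highest library and progesterone R1 lay within the DMSO range, and the log2 fold change of 0.51 ± 0.21 did not pass (adjusted p = 0.167), nor did that of 0.33 ± 0.26 without R7 and R9 (0.593). The same 2 libraries were the extremes of the progesterone group for GPX8, GLRX2, the glutaredoxin GLRX, GSTO1, MGST2, MGST3 and the copper-zinc superoxide dismutase SOD1. Mitochondrial TXN2 was at 51.7 ± 4.89 CPM with progesterone and 56.7 ± 3.77 CPM with DMSO (log2 fold change -0.13, interval -0.34 to 0.07). GLRX was at 23.8 ± 4.15 and 26.1 ± 3.82 CPM, with a log2 fold change of -0.13 that was 0.02 without R7 and R9.

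Of the 4 genes that make glutathione or reduce its disulfide, none passed in edgeR or limma voom. In edgeR 1 reached 0.05 before adjustment (26.8% of all genes did), and it was also the 1 that DESeq2 called (13.5% of all genes). This was GCLC (512468, chromosome 23), the catalytic subunit of glutamate-cysteine ligase, which sets the rate of glutathione synthesis. GCLC was at 20.3, 20.0, 23.1 and 17.7 CPM with progesterone and at 22.3, 25.7, 34.9 and 35.2 CPM with DMSO. The groups overlapped between progesterone R3 and DMSO R1, and DMSO R7 and R9 were the 2 highest libraries. Its log2 fold change was -0.54 ± 0.16 with all libraries (edgeR adjusted p = 0.0815) and -0.23 ± 0.13 without R7 and R9 (0.408).

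GCLM, the modifier subunit of the same ligase, had the opposite sign, at 24.7 ± 2.06 CPM with progesterone and 21.9 ± 2.69 CPM with DMSO (log2 fold change 0.18, interval -0.08 to 0.43). GSS, glutathione synthetase, was at 34.6 ± 2.72 and 32.2 ± 1.83 CPM. GSR (506406, chromosome 27), the NADPH-dependent reductase of glutathione disulfide, was at 46.9, 49.6, 44.2 and 39.3 CPM with progesterone and at 48.1, 43.9, 40.3 and 43.6 CPM with DMSO. These ranges overlapped almost wholly, and the 95% interval of the GSR log2 fold change ran from -0.18 to 0.25.

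Glutathione transferases couple glutathione to electrophiles, and the microsomal enzymes also reduce lipid peroxides. The 10 rows of this family all had a log2 fold change above 0, between 0.01 and 0.85, against 49% of all genes. Without R7 and R9, 8 of 10 did, against 52% of all genes. The family's median was 0.30 over 8 libraries but 0.06 without these 2. MGST1 (493719, chromosome 5), the membrane-bound microsomal transferase, was the 1 row that passed, where 1.69% of all genes passed as higher. It was at 83.4, 90.7, 94.5 and 88.8 CPM with progesterone and at 39.0, 47.1, 55.4 and 57.0 CPM with DMSO. The groups were far apart, and DMSO R7 and R9 were the DMSO libraries nearest to progesterone. MGST1 averaged 89.4 ± 4.61 CPM with progesterone and 49.6 ± 8.34 CPM with DMSO (SD, n = 4 each), a rise of 1.80-fold (0.85 ± 0.12 SE as log2, edgeR adjusted p = 0.0118). Set against DMSO R1 and R3 alone it was 1.07 ± 0.10 as log2 (adjusted p = 0.00148), and MGST1 passed in 8 of 8 fits that left out a library.

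The other microsomal enzymes did not pass. MGST2, which can also make leukotriene C4, was at 28.6, 29.9, 31.5 and 32.8 CPM with progesterone and at 30.0, 30.9, 16.4 and 22.05 CPM with DMSO. Its log2 fold change of 0.30 rested on R7 and R9 and was 0.02 without them. MGST3 was at 53.9 ± 15.3 CPM with progesterone and 43.8 ± 3.49 CPM with DMSO, with progesterone R6 at 73.8 CPM and R1 at 36.5 CPM.

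Among the soluble transferases, GSTM3 (615507, chromosome 3), a mu-class enzyme, was at 3.48, 5.55, 3.69 and 4.47 CPM with progesterone and at 3.00, 2.02, 3.05 and 3.29 CPM with DMSO. Its groups did not overlap, and its log2 fold change of 0.59 ± 0.23 did not pass (adjusted p = 0.143), nor did that of 0.78 ± 0.27 without R7 and R9 (0.189). The pi-class GSTP1 (281806, chromosome 29) was at 299, 311, 339 and 300.8 CPM with progesterone and at 296, 300.3, 230.5 and 239 CPM with DMSO. DMSO R1 and R3 lay beside the progesterone values, and the log2 fold change was 0.23 over 8 libraries and 0.08 when R7 and R9 were omitted. The omega-class GSTO1 was at 13.1, 14.0, 15.4 and 22.2 CPM with progesterone and at 12.9, 15.9, 7.46 and 6.54 CPM with DMSO, and the kappa-class GSTK1, found in mitochondria and peroxisomes, at 36.2 ± 1.56 and 31.3 ± 6.14 CPM. Their log2 fold changes were 0.60 and 0.21 with all libraries, and 0.18 and 0.00 without R7 and R9.

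Values of several transferases would be uncertain if related copies shared reads, which was not tested, as no sequences were compared. The second GSTP1 row (525938) lies next to the first in the reference gene table, which names this second row GSTP1 and the first LOC281806. This second row held 5.53 ± 1.14 CPM with progesterone. With DMSO it was at 5.33 and 5.54 CPM in R1 and R3 and at 1.87 and 1.74 CPM in R7 and R9, and its log2 fold change was 0.61 over 8 libraries and 0.04 over the 6 others. The GSTM1 rows were at 13.3 ± 1.75 and 13.2 ± 1.81 CPM (327709) and at 20.6 ± 3.70 and 17.7 ± 5.39 CPM (783879), and lie on chromosome 3 with GSTM3 and other mu-class copies. GSTO1 has another omega-class gene, GSTO2, as its neighbour.

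Of the superoxide dismutases and catalase none of 4 passed in edgeR or limma voom. In edgeR 2 reached 0.05 before adjustment, against 26.8% of all genes, and DESeq2 called 1, against 13.5% of all genes. SOD2 (281496, chromosome 9), the manganese enzyme of mitochondria, was at 51.7, 51.1, 59.0 and 51.1 CPM with progesterone and at 42.9, 41.6, 43.9 and 37.1 CPM with DMSO. All progesterone libraries lay above all DMSO libraries. The log2 fold change was 0.36 ± 0.09 (edgeR adjusted p = 0.0624, DESeq2 0.0065) and 0.35 ± 0.10 without R7 and R9 (edgeR 0.112). SOD1 was at 112, 128, 137 and 169.6 CPM with progesterone and at 113.5, 123, 103 and 99.8 CPM with DMSO, and its groups overlapped. Its log2 fold change was 0.32 over 8 libraries and 0.22 with R7 and R9 omitted.

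The extracellular enzyme SOD3 was at 6.17, 5.39, 7.62 and 5.67 CPM with progesterone and at 6.32, 6.32, 12.2 and 9.61 CPM with DMSO. Only R7 and R9 lay above the progesterone range, and the log2 fold change was -0.47 ± 0.24 with all libraries and -0.01 ± 0.18 without them. CAT (531682, chromosome 15), the peroxisomal catalase, was at 93.6 ± 3.62 CPM with progesterone and 90.5 ± 2.10 CPM with DMSO. The 95% interval of the CAT log2 fold change ran from -0.10 to 0.20.

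NQO1, a quinone reductase that uses NADPH or NADH and a classical target of the factor NRF2, was at 23.9, 19.3, 14.9 and 21.6 CPM with progesterone and at 19.6, 16.2, 16.9 and 16.3 CPM with DMSO. Progesterone R3 was the lowest of the 8 libraries, and the log2 fold change of 0.21 (interval -0.12 to 0.54) did not pass. NNT (280878, chromosome 20), the transhydrogenase of the inner mitochondrial membrane that makes NADPH from NADH, was at 133, 113, 114 and 112 CPM with progesterone and at 138, 132, 128 and 136 CPM with DMSO. Of the progesterone libraries 3 lay below every DMSO library and R1 lay among them. The NNT log2 fold change was -0.18 ± 0.08 (adjusted p = 0.188), and -0.18 ± 0.10 without R7 and R9.

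**Figure D3:**
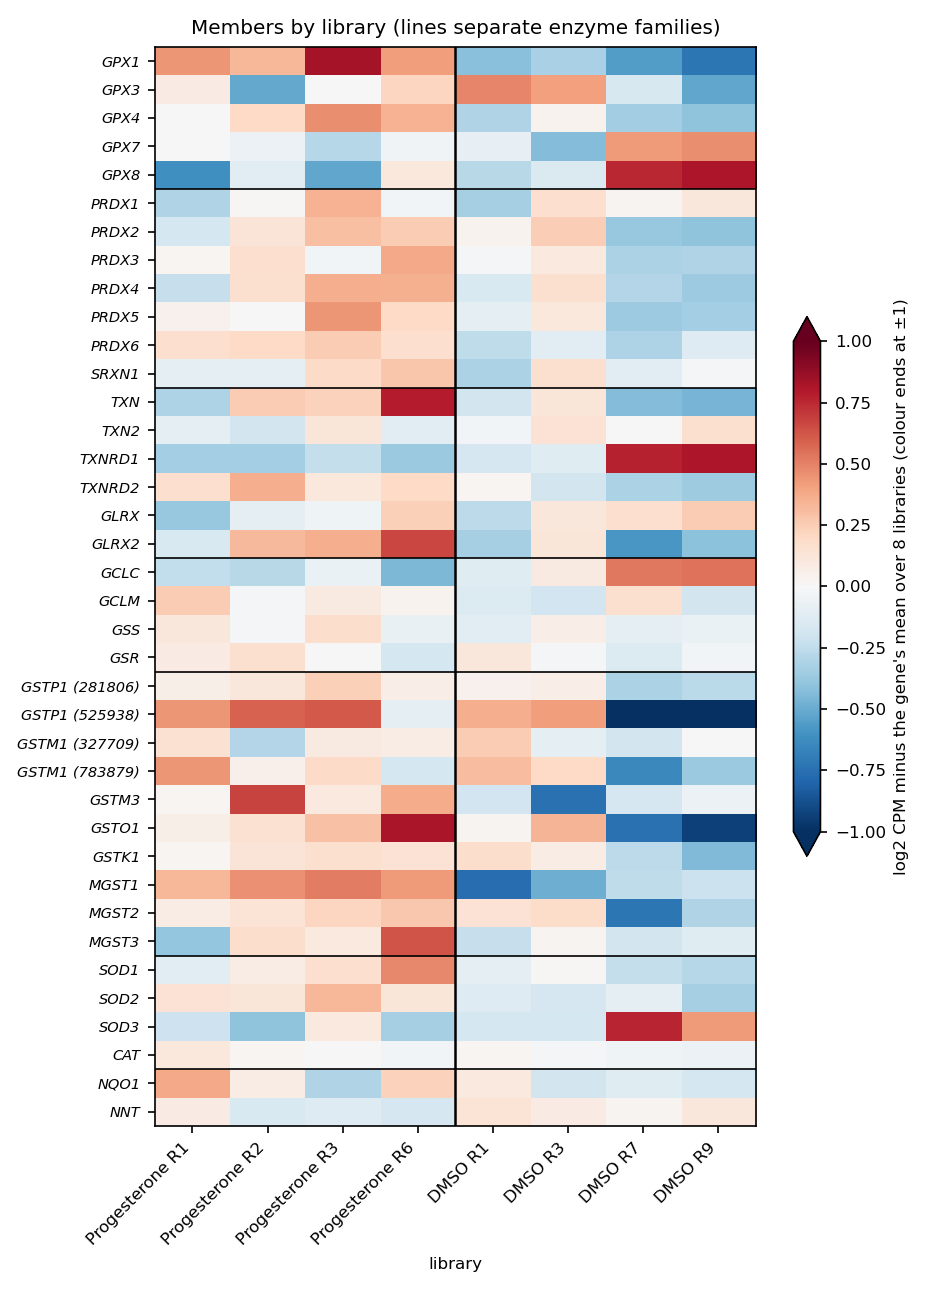
Colour gives log2 CPM (prior count 2) of each member minus its mean over the 8 libraries, with libraries across (progesterone left, DMSO right) and members down the page by family. GPX1 and MGST1 are red in all 4 progesterone libraries and blue in all 4 DMSO libraries, while TXNRD1, GCLC, GPX8 and SOD3 are red in DMSO R7 and R9.

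DMSO R7 and R9 lay together at the low or the high end of many members. Both lay below the other 6 libraries at 17 of the 38 rows (44.7%, against 24% of all genes) and above them at 5 (13.2%, against 25.2%). The 5 that were above were GPX7, GPX8, TXNRD1, GCLC and SOD3. The rows below held 4 peroxiredoxins, GPX1, GPX4, TXN, TXNRD2, GLRX2, SOD1, CAT and 6 transferase rows. On the log2 scale, the members' median deviation from their means lay between 0.03 and 0.18 in the progesterone libraries. It was -0.10 in DMSO R1, 0.07 in DMSO R3, -0.19 in DMSO R7 and -0.20 in DMSO R9. Within the progesterone group R3 held the highest value at 17 members (44.7%, against 30.2% of all genes) and R1 the lowest at 17 (44.7%, against 25.3%). Together the members took 0.376% to 0.459% of all estimated counts with progesterone and 0.344% to 0.418% with DMSO, ranges that overlapped.

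**Figure D4:**
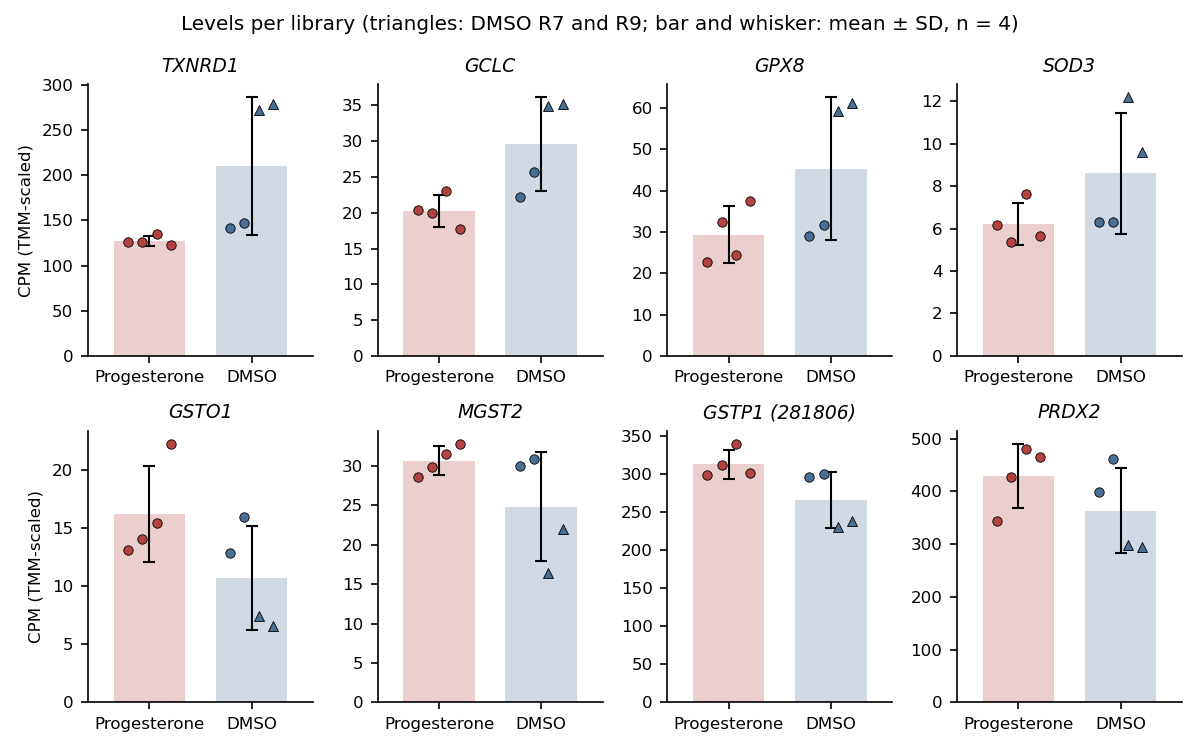
CPM of 8 members at which DMSO R7 and R9 (triangles) lie apart from the other libraries, with progesterone in red at the left and DMSO in blue at the right of each panel. Bars and whiskers give the mean ± SD (n = 4 each); for TXNRD1, GCLC, GPX8 and SOD3 the triangles are high and for GSTO1, MGST2, GSTP1 and PRDX2 they are low, while the DMSO circles lie in or near the progesterone range.

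The genes around these enzymes were read in 7 lists. Over all genes tested, 2.65% passed in edgeR, 1.69% as higher and 0.959% as lower. Before adjustment 26.8% reached 0.05, and DESeq2 called 13.5% and limma voom 2.04%. The counts of each list are to be read beside these shares and carry no test. NADPH supply had 14 tested genes and none passed in edgeR, where 3 reached 0.05 before adjustment (DESeq2 called 2 and limma voom 0), with a median log2 fold change of -0.05. In this list MTHFD1, a folate enzyme that yields NADPH, was at 123, 104, 107 and 102 CPM with progesterone and at 146, 139, 121 and 136 CPM with DMSO (log2 fold change -0.32 ± 0.09, adjusted p = 0.0761). PGD, the second NADPH-making step of the pentose phosphate pathway, was at 309.7, 293, 332 and 236 CPM with progesterone and at 233, 267, 215 and 249 CPM with DMSO, and its groups overlapped.

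Among NRF2, its regulators and its usual targets, 3 of 25 rose, none fell and 22 did not pass, with a median of 0.14. Of all genes tested 1.69% rose and 0.959% fell. PIR (790878, chromosome X), pirin, an iron-binding nuclear protein, was at 19.0, 17.2, 20.4 and 19.2 CPM with progesterone and at 9.93, 9.11, 5.43 and 4.46 CPM with DMSO. It rose 2.62-fold (1.39 ± 0.24 SE as log2, edgeR adjusted p = 0.0233) and also passed without R7 and R9 (1.01, 0.00615). FTL, the ferritin light chain, rose 1.48-fold and BLVRB, biliverdin reductase B, 1.34-fold (adjusted p = 0.0459 and 0.0497). Without R7 and R9 their log2 fold changes were 0.55 and 0.39, close to 0.57 and 0.42 with all libraries, and neither passed (adjusted p = 0.0949 and 0.119). NFE2L2, which encodes NRF2, was at 102 ± 5.63 CPM with progesterone and 88.1 ± 18.9 CPM with DMSO, and its repressor KEAP1 at 97.3 ± 7.27 and 95.1 ± 11.6 CPM, and neither passed.

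No gene passed among 21 of glutathione substrate and turnover, 21 of selenoprotein synthesis and 9 other glutathione transferases. In edgeR 8, 6 and 1 of them reached 0.05 before adjustment, against 26.8% of all genes. DESeq2 called 5, 2 and 0, against 13.5% of all genes, and limma voom called 0 in each list. OPLAH, the 5-oxoprolinase that returns glutamate from the glutathione cycle, had no overlap between the groups, at 69.5 ± 4.04 CPM with progesterone and 46.6 ± 9.60 CPM with DMSO (log2 fold change 0.58 ± 0.14, adjusted p = 0.0541). Omitting R7 and R9 gave 0.36 for OPLAH on the log2 scale. SLC7A11, the cystine carrier of the exchanger that supplies cysteine for glutathione, was at 6.51, 8.24, 6.85 and 11.2 CPM with progesterone and at 5.70, 8.15, 25.6 and 21.1 CPM with DMSO, where R7 and R9 stood out as they did for TXNRD1 and GCLC. SLC3A2, its partner chain, was at 209.8 ± 25.4 and 169 ± 6.99 CPM. SCLY, which releases selenium from selenocysteine, was at 21.6 ± 1.37 and 17.3 ± 1.10 CPM. SELENOI, an enzyme of phosphatidylethanolamine synthesis that is itself a selenoprotein, was at 32.7 ± 4.58 and 43.6 ± 6.51 CPM (adjusted p = 0.0953). As log2, the SELENOI difference was -0.42 over 8 libraries and -0.21 with R7 and R9 omitted. Among the other transferases, GDAP1, a mitochondrial outer membrane protein, was at 0.358 ± 0.0496 CPM with progesterone and 1.13 ± 0.740 CPM with DMSO. DMSO R7 and R9 were its 2 highest libraries and DMSO R1 its lowest, and the GDAP1 log2 fold change was -1.63 over 8 libraries and -0.45 with R7 and R9 omitted. The theta-class GSTT2 was at 1.87 ± 0.142 and 1.36 ± 0.228 CPM.

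Among thioredoxin and glutaredoxin partners, 2 of 21 fell and none rose, against 0.959% and 1.69% of all genes. They were the related arrestins ARRDC4 and TXNIP, of which TXNIP binds thioredoxin and was 3.43-fold lower (edgeR adjusted p = 0.0303). ARRDC4 was at 2.02, 2.89, 3.20 and 3.31 CPM with progesterone and at 4.74, 6.17, 9.60 and 8.21 CPM with DMSO (-1.33 ± 0.26 as log2, edgeR adjusted p = 0.0327). Without R7 and R9 neither ARRDC4 (-0.93, adjusted p = 0.0910) nor TXNIP (-1.63, adjusted p = 0.146) passed. Among oxidant sources, 3 of 16 rose and none fell, against 1.69% and 0.959% of all genes. Beside XDH, which can make superoxide and hydrogen peroxide, these were MAOA, a monoamine oxidase that yields hydrogen peroxide, and PRODH, the proline dehydrogenase of mitochondria. MAOA was at 8.04, 7.41, 6.92 and 7.94 CPM with progesterone and at 4.20, 3.82, 1.83 and 1.93 CPM with DMSO, 2.57-fold higher (edgeR adjusted p = 0.0373, and 0.0332 without R7 and R9). PRODH was at 14.8, 9.12, 14.9 and 14.4 CPM with progesterone and at 7.20, 4.99, 5.80 and 5.98 CPM with DMSO, 2.22-fold higher (adjusted p = 0.0207). Its log2 fold change was 1.15 over 8 libraries and 1.14 with R7 and R9 omitted, where the adjusted p was 0.0503.

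**Figure D5:**
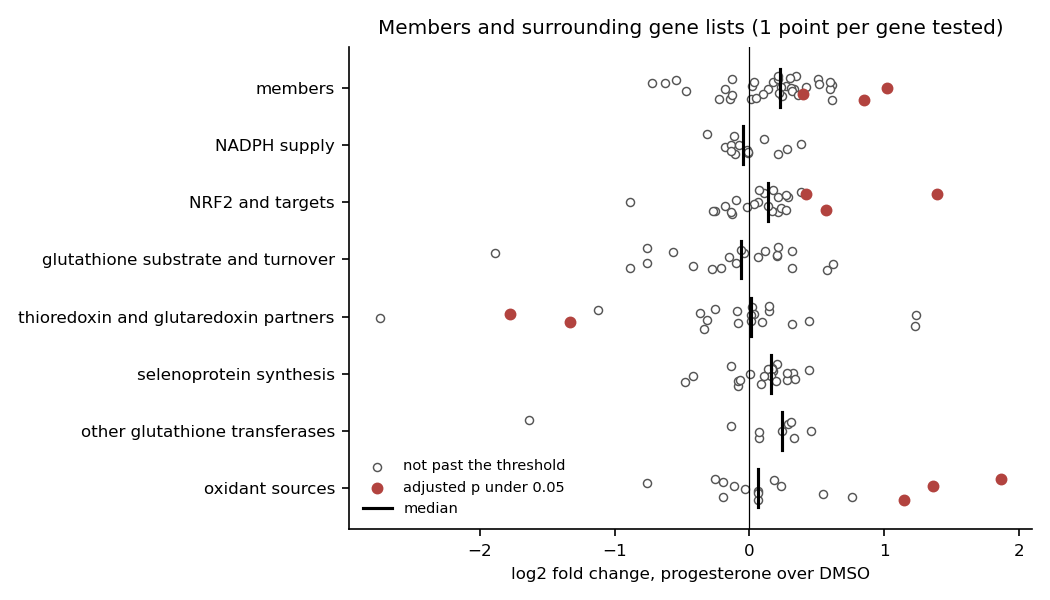
Log2 fold change, progesterone over DMSO, of each tested gene (points, horizontal axis), for the members and the 7 surrounding lists down the page. Filled red points have an adjusted p under 0.05 and bars are medians; 3 members, 3 NRF2 genes and 3 oxidant sources are filled to the right and 2 thioredoxin partners to the left.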

How the data were processed

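Libraries had been made with a stranded poly(A) kit, per the labels' protocols. Salmon 1.4.0, bcl2fastq and the build ARS-UCD1.2 appear, without roles, in the submitters' processing notes. The deposited values were read as estimated counts per gene. The table's name speaks of length normalization, but how the authors applied it or summed transcripts is not stated in these sources. No transcript lengths were used, so levels are not compared between genes, and the part of the naming rule that needs them was not applied. Chromosomes are those of the deposited table. The reference gene table, of another assembly (ARS-UCD2.0), held all 38 member rows and served for neighbours alone. No sequence is shown.

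Counts were rounded. Genes were kept by filterByExpr (13557, or 13764 without DMSO R7 and R9), scaled by TMM and tested with edgeR 4.0.16 (quasi-likelihood, robust, two-sided, R 4.3.3), with no covariate. Benjamini-Hochberg adjustment covered every gene tested, and 0.05 was the threshold. CPM are TMM-scaled. A standard error is the log2 fold change divided by the square root of F, and 95% intervals use the t distribution. Library pairs within a group differed beyond sampling noise (chi-square per degree of freedom of 14.2 or more). The script's recovery of set log2 fold changes was checked on simulated counts. These held no split like that of DMSO R7 and R9, so the check does not cover the calls.

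Members and lists were chosen with earlier results of these data known. Values by library are given for members that passed or did not overlap between groups, and for others chosen after their values were seen. Of each surrounding list the genes that passed, or otherwise those with the smallest p, are named; NFE2L2, KEAP1, SLC7A11 and PGD were added after their values were seen. Some listed genes are not reported here. Alternatives were DESeq2 1.42.0, limma voom (limma 3.58.1), other scalings and filters, counts left unrounded, non-robust estimation, 0.01 as threshold and omission of each library. Added with the data known were omission of R7 and R9 together, a term for them and a block by column number.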

Additional observations from a re-analysis of the deposited data

Results flagged for a closer look

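Within a group of 4 libraries, the gap of the extreme library to its nearest neighbour exceeded Dixon's 95% critical value, as a share of the group's range, in 3 of 76 groups tested, where chance gives about 1 in 20. For SOD2, progesterone R3 was at 59.0 CPM and the next library at 51.7 CPM. NNT was at 132.9 CPM in progesterone R1 and at 114 CPM in the next library. GCLM was at 25.9 CPM in DMSO R7 and at 21.0 CPM in the next library.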

How the results depend on the processing

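GPX1 passed in all 21 alternatives and MGST1 in 20, all but the threshold of 0.01. PRDX6 passed in 12. The 3 members called higher and 0 called lower were the count under every other scaling, filter, rounding and robustness setting and under limma voom. DESeq2 called 7 higher and 2 lower, with 1830 genes called in all, and the threshold of 0.01 left 1, with 27 in all. Leaving out 1 library gave 2 to 5 higher and 0 to 2 lower. The upper ends came without DMSO R1 (TXNRD2 and SOD2 added as higher, TXNRD1 and GCLC as lower) and without DMSO R3 (GPX4 and GLRX2 higher, TXNRD1 lower), where all genes called also went up, to 1782 and 795, against 359. In the other 6 such fits 42 to 82 genes were called in all. The members' median was 0.11 on omission of R7 and R9 and 0.094 with a term for them. With the column number as replicate block, 7 members were called higher and 1 lower, with a median of 0.066, and 2531 genes in all. Only R1 and R3 are in both groups, so the group difference in this fit rests on the libraries with these numbers alone. Every other library has a number of its own and adds nothing to that difference. The correlations of deviations for R1 and R3 were 0.226 and 0.2096. With 2 such numbers and no label behind them, whether libraries of the same number belong together is not known. The cause of these shifts was not tested. Signs turned only at members that did not pass in the reported fit. Omission of R7 and R9 gave log2 values of 0.17 for GPX7, 0.022 for GLRX, -0.017 for GSR, -0.064 for GSTM1 (327709) and -0.096 for GSTM1 (783879). A term for them gave 0.16 for GPX7, -0.0033 for PRDX2, 0.0083 for GLRX, -0.030 for GSR, -0.077 for GSTM1 (327709), -0.11 for GSTM1 (783879) and -0.0088 for GSTK1. The replicate block gave 0.12 for GPX7, -0.076 for PRDX2, -0.044 for PRDX3, -0.0075 for TXN, -0.012 for GSR, -0.011 for GSTO1, -0.034 for GSTK1, -0.022 for MGST2, -0.038 for MGST3 and 0.12 for SOD3. Omission of 1 library in turn gave -0.31 to 0.0098 for GPX3, -0.10 to 0.11 for PRDX1, -0.045 to 0.12 for GSTM1 (327709) and -0.0060 to 0.095 for GSR. The lowest member count in a library was 46, and depth limits most the 4 members under 10 CPM (GPX3, GSTM3, SOD3 and the second GSTP1 row).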
